A study of Mus musculus with 20 samples.

Results

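Germinal centre B cells of the dark zone state were compared between the G2M and the G1 phase of the cell cycle. The members were all cells that the authors annotated as dark zone and assigned to G2M (132 cells) or to G1 (221 cells), together 353 of the 1367 cells of the series. Another 99 dark zone cells were assigned to S phase and serve as a further point of reference. The lymph nodes of C57BL/6 mice were taken 15 days after immunisation with NP-KLH, a hapten on a carrier protein, in Sigma Adjuvant System, and 4 days after tamoxifen gavage, which all cells of both phases share. All cells were sorted as eYFP+ B cells and plasma cells. The driver of the reporter and the number of mice are not given in the sources used here. The sampleIDs C57BL/6F and C57BL/6M contributed 10 plates each, so sex, animal and handling cannot be told apart between them. Each well held a single cell, whose surface fluorescence was recorded at the sort and whose transcripts were read from the 5′ end by FB5P-seq.

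Germinal centres are the sites where B cells mutate and select their antigen receptors. In the dark zone the cells divide and mutate their receptor genes, and in the light zone they test the changed receptor against antigen and present peptides on MHC class II to helper T cells. A dividing cell builds up mitotic cyclins, kinases and spindle proteins in G2, and the anaphase promoting complex with its activator Cdc20 has the cyclins degraded as mitosis ends. Cells in G2M hold replicated DNA and are in general larger than cells in G1.

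The phase call follows transcript scores. Among these cells the lowest G2M score of a cell called G2M was 0.151 and the highest of a cell called G1 was 0.146. Between 0.1 and 0.15 lay 9 G1 cells, and between 0.15 and 0.2 lay 5 G2M cells. The genes scored are not given in the sources used here, so members of the S and G2/M lists in common use for such scores are given as a description and support nothing. Other genes were tested, but come from the transcripts of the same cells. The fluorescence is a readout of its own.

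Of the 20 plates, 14 held at least 5 cells of each phase (7 of each sampleID), and their 162 G1 and 115 G2M cells were summed to 1 pool per plate and phase. The pools held between 191572 and 1149120 counts. No cell had the counts of another cell and no cell name was repeated, while 94 well barcodes were in use on more than 1 plate. Levels are given in CPM, a gene's counts relative to the TMM-scaled total of its pool. For marker and list sums, levels over summed pools or cells, and genes that did not pass the filter, the unscaled total was used. The 6 germinal centre B markers summed to 2667 to 5579.9 CPM in G1 and 2794 to 4999.5 in G2M pools. The 5 plasma cell markers summed to 2859 to 5037 CPM (median 3408) in G1 and 2086 to 5013 CPM (median 2856) in G2M. Over summed pools, Jchain stood at 3186 and 2724 CPM and Xbp1 at 246 and 208 CPM in G1 and G2M. Prdm1 had 0 counts in either phase, Sdc1 0 in G1 and 19 in G2M, and Fkbp11 1 in G1 and 0 in G2M. The 6 defining T cell markers summed to at most 25.6 CPM and the 5 defining myeloid markers to at most 54.0 CPM in a pool. Both sums had a median of 0 in each phase, and Cd3g, Cd8a, Csf1r, Itgam and C1qa were at 0. Cd3e is absent from the deposited gene names, so it could not add to the T cell sum. The wider T cell list, with counts for 9 of 13 genes, summed to 0 to 1128 CPM (median 249) in G1 and 64.6 to 592 CPM (median 290.3) in G2M, and its 1 gene that passed the filter, the kinase gene Lck, stood at 319 ± 249 and 298 ± 156 CPM in G1 and G2M. The wider myeloid list (6 of 11 genes) summed to 0 to 209.7 CPM (median 1.72) in G1 and 0 to 72.4 CPM (median 1.49) in G2M, and the red cell and stromal list (6 of 13), which includes the B cell genes Fcer2a and Cr2, summed to 214 to 1332 CPM (median 639.7) in G1 and 113 to 835 CPM (median 509) in G2M. Here and below, p-values measure the spread between plates.

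Cells in G2M carried more counts and more genes than cells in G1 of the same plate. Mean log2 total counts were 15.1 ± 0.432 in G1 and 15.9 ± 0.656 in G2M (SD, n = 14 plates), higher on 12 plates (exact permutation test, adjusted p = 0.00515). Log2 counts per spike-in count, a measure of RNA content relative to a fixed input, differed by 0.777 ± 0.541 and were higher on 13 plates (exact permutation test, adjusted p = 0.00163). The genes detected numbered 1274 ± 339.9 in G1 and 1805 ± 574 in G2M, higher on 13 plates (exact permutation test, adjusted p = 0.000977). After every cell was thinned to 20000 counts, which left out 29 G1 and 16 G2M cells of these plates, they numbered 1309 ± 336 in G1 and 1712 ± 444 in G2M, higher on 14 of 14 plates (exact permutation test, adjusted p = 0.000814). A gene's share of the counts and its molecules per cell are thus different quantities here.

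Ccnb2, a mitotic cyclin gene, ran from 75.7 through 273 to 1157 CPM in the G1 pools and from 637 through 1419 to 2088 CPM in the G2M pools. It was higher in G2M on every plate, although the groups overlapped. Cdc20 had 0 counts in 7 of the G1 pools, ran from 0 through 1.43 to 181 CPM there and from 661 through 1317 to 1938 CPM in G2M, with no overlap. As means, Ccnb2 stood at 345 ± 291 CPM in G1 and 1462 ± 348 in G2M and Cdc20 at 40.8 ± 61.5 CPM in G1 and 1259 ± 424 in G2M. In S phase pools Ccnb2 stood at 330.5 ± 206 CPM and Cdc20 at 131 ± 139 CPM. Both genes belong to the scored G2/M list, so these levels describe the phase call.

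**Figure D1:**
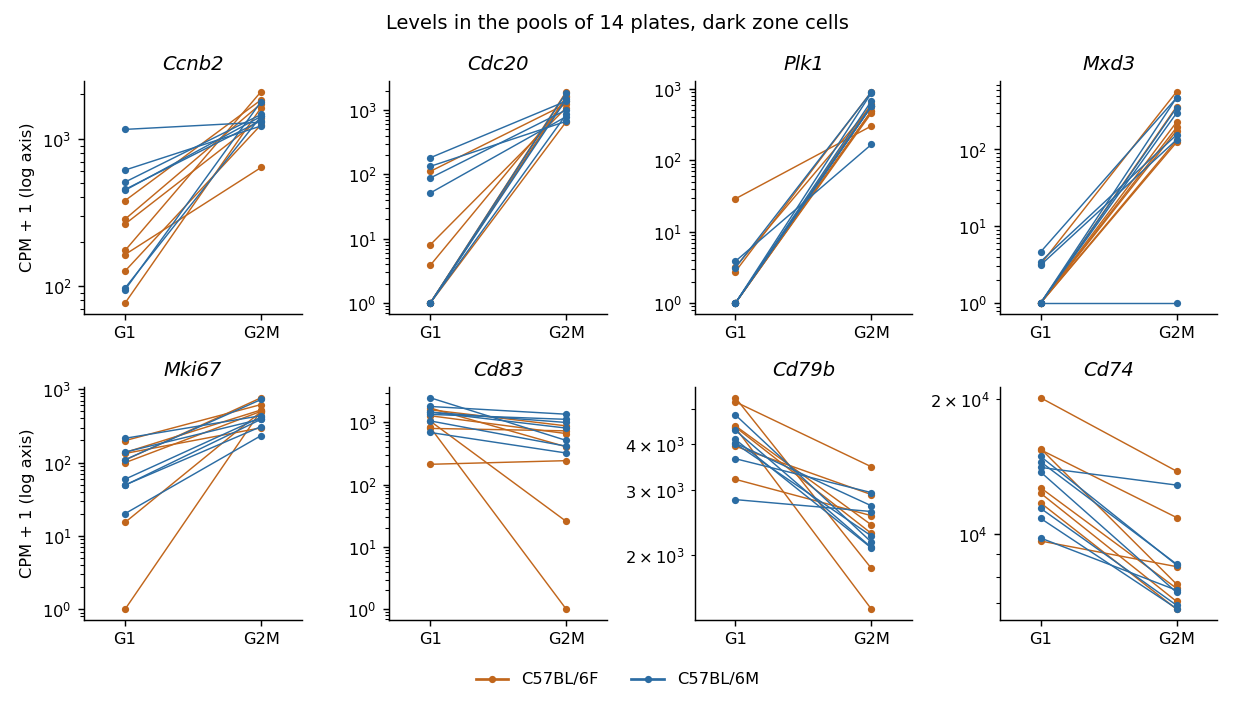
Levels of 8 genes in the G1 and G2M pools of 14 plates (CPM + 1, log axes, with a range of its own in each panel); each line joins the pools of a plate and is coloured by sampleID. Cdc20, Plk1 and Mki67 have no overlap between the phases, Cd83 is lower in G2M on 13 plates, and Cd79b and Cd74 are lower in G2M as a share of counts on every plate.

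Single cells carried these transcripts at different frequencies. At 20000 counts per cell, without 50 G1 and 20 G2M cells of all plates that held fewer, Ccnb2 had a count in 102 of 112 G2M cells (91.1%, exact Clopper-Pearson 95% interval 84.2% to 95.6%) and in 47 of 171 G1 cells (27.5%, 20.9% to 34.8%). Unthinned, the shares were 85.6% and 28.1%. Cdc20 was seen in 82.1% of G2M cells and 8.19% of G1 cells and the cyclin gene Ccnb1 in 72.3% of G2M cells and 4.68% of G1 cells. Plk1, which encodes polo-like kinase, was seen in 61.6% of G2M cells and 2.34% of G1 cells, and Mki67, the gene of the proliferation antigen Ki-67, in 67.9% of G2M cells and 21.1% of G1 cells. Unthinned, the shares in G2M and G1 were 74.2% and 10.9% for Cdc20, 57.6% and 3.17% for Plk1 and 68.9% and 22.2% for Mki67. Ccnb2 and Mki67 were thus the most frequent of these in cells called G1. The intervals cover counting error only.

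Over 4335 genes tested, edgeR called 204 (4.71%) at an adjusted p under 0.05, of which 156 were higher in G2M (3.6% of the genes tested) and 48 lower (1.11%). Outside the scored lists 111 of 4264 were higher (2.6%) and 48 lower (1.13%). Of these 111 genes, 61 stood on other cell cycle lists. With cells thinned to 20000 counts, 95 genes were higher and 38 lower among 2415 tested. In cells of the dark zone sort gate alone, 55 genes were higher and 25 lower among 2547 tested.

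**Figure D2:**
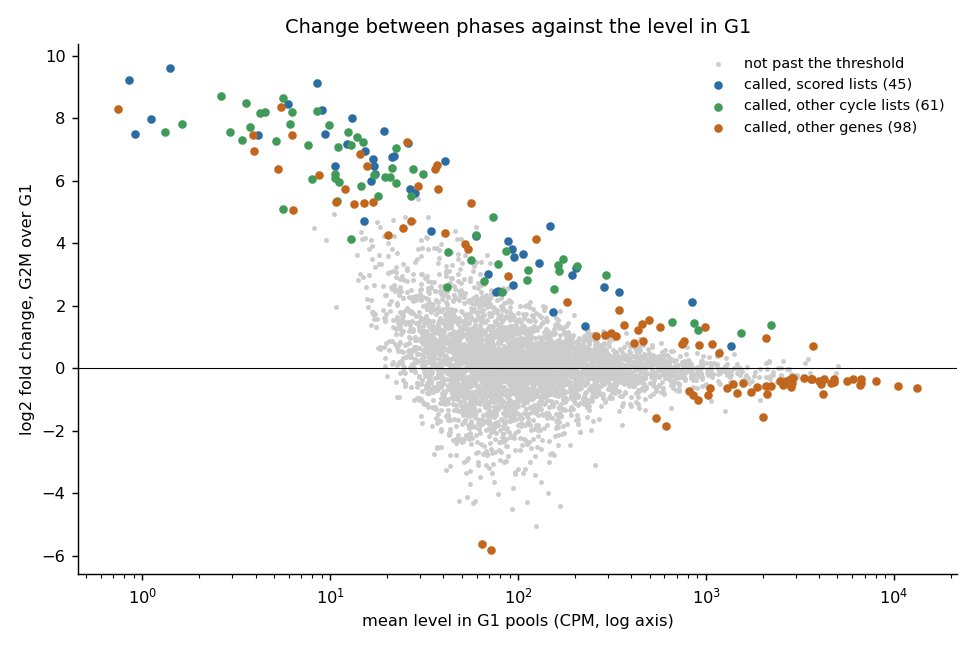
Fitted log2 fold change of 4335 genes (G2M over G1) against the mean level in the G1 pools (CPM, log axis). The 45 called genes of the scored lists and the 61 called genes of other cycle lists lie above 0, and 41 of the 48 genes called lower lie at 1000 CPM or more in G1.

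In the scored G2/M list 39 of 45 members tested were higher and 0 lower (median 4.70 log2 against 0.11 over all genes), which describes the phase call. Its most abundant member in G2M was Hmgb2, a chromatin protein gene, which ran from 272 to 1530.0 CPM in G1 and from 2425 to 4182 CPM in G2M. Hn1 stood at 1358 ± 256 CPM in G1 and 2232 ± 433 in G2M. The survivin gene Birc5 stood at 147 ± 179.8 and 1612 ± 429.5 CPM and Cdca8, its partner in the chromosomal passenger complex, at 202 ± 139.9 and 1400.1 ± 344 CPM. Cks1b, which encodes a Cdk-binding subunit, stood at 285 ± 232 and 1362 ± 369 CPM and the condensin gene Smc4 at 129 ± 75.5 and 1121 ± 223 CPM. The mitotic kinase gene Aurka stood at 0.851 ± 2.37 and 512 ± 241 CPM, with 0 counts in 11 G1 pools. The central spindle kinesin gene Kif23 stood at 1.41 ± 5.26 and 347 ± 142 CPM, with 0 counts in 13 G1 pools, and the spindle gene Nusap1 at 9.06 ± 22.6 and 602 ± 263 CPM. Mki67 ran from 0 through 103 to 213 CPM in G1 and from 232 through 464 to 763 CPM in G2M, with no overlap.

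Mitotic genes outside the scored lists were higher as well. Of 87 listed, 55 passed the filter on low counts and 47 of these rose, with 0 lower (median of those tested 6.11 log2). A gene can pass the filter through the phase where it is high, so these counts support nothing about the members that did not pass. Where most G1 pools are at 0 the fitted fold change depends on edgeR's prior count, so levels are given first. Such genes passed the filter through their G2M pools, so their fold changes and p-values are given as a description. Plk1 had 0 counts in 9 G1 pools, ran from 0 through 0 to 27.9 CPM in G1 and from 166 through 573 to 913 CPM in G2M, with no overlap (8.70 ± 0.71 log2, SE, adjusted p = 1.87e-08). Ccnb1 ran from 0 through 0 to 125 CPM in G1 and from 457 through 699.8 to 1086 CPM in G2M (6.22 ± 0.86 log2, adjusted p = 2.11e-05). Neither gene overlapped between the phases. Ccna2, the cyclin gene of S and G2, rose from 26.8 ± 46.7 to 488 ± 286 CPM, on every plate, with its lowest G2M pool at 6.49 CPM.

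Others of the genes with the largest rises under the naming rule follow by their known roles. The shugoshin genes Sgol2a and Sgol1, protectors of cohesion at centromeres, rose from 5.61 ± 21.0 to 181 ± 114 CPM and from 3.75 ± 12.9 to 121 ± 79.4 CPM. Cdca5, which encodes sororin, a protein that keeps cohesin on chromatin, rose from 3.54 ± 11.9 to 314 ± 207 CPM. The inner centromere gene Incenp rose from 8.5 ± 23.9 to 247 ± 104 CPM. The spindle and kinetochore genes Ska1 and Ska2 rose from 4.24 ± 15.4 to 150.5 ± 115 CPM and from 9.83 ± 25.0 to 119 ± 61.3 CPM. The centromere genes Cenpl and Cenpk rose from 4.49 ± 15.99 to 231 ± 152 CPM and from 12.4 ± 44.9 to 146 ± 75.1 CPM. The spindle pole gene Aspm rose from 6.13 ± 15.1 to 234 ± 136 CPM and Shcbp1 from 6.27 ± 19.9 to 411 ± 178 CPM. The G1 means of these genes were smaller than their SDs, that is, a few pools carried most of the G1 counts. In the 14 fits that left out 1 plate, Ska1 passed the filter on low counts in only 1 and Cenpl in only 2, each keeping its call there.

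Regulators of the cycle rose beside these effectors. Fbxo5, which encodes Emi1, an inhibitor of the anaphase promoting complex, ran from 0 through 0 to 4.92 CPM in G1 and from 86.3 through 192 to 684 CPM in G2M, with no overlap (7.56 ± 0.83 log2, adjusted p = 8.3e-07), and stood at 329.8 ± 237 CPM in S phase. Ccnf, which encodes the F-box protein cyclin F, rose from 1.62 ± 5.57 to 139 ± 98.5 CPM. Mxd3, which encodes a partner of Max from the family of Myc antagonists, had 0 counts in 10 G1 pools and 5 counts over all of them. It ran from 0 through 210.0 to 566 CPM in G2M and was higher on 13 plates (8.30 ± 0.88 log2, adjusted p = 7.35e-07). In the 14 fits that left out 1 plate, Mxd3 passed the filter on low counts in only 1 and Ccnf in only 2, each keeping its call there. At 20000 counts per cell Mxd3 was seen in 32.1% of G2M cells and 1.75% of G1 cells. Kpna2, an importin gene, rose from 164 ± 152 to 1187 ± 425 CPM. Calm2, a calmodulin gene, rose from 1541 ± 396 to 3339.5 ± 644 CPM with no overlap (1.13 ± 0.10 log2, adjusted p = 3.57e-08).

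The promoters of Ccnb2, Cdc20 and Plk1 are shown because cell cycle genes of this kind are known to carry CCAAT boxes and a cell cycle homology region, TTTGAA. Each run spans 250 bases before to 50 bases after the start in RefSeq (GRCm38.p6), 5′ to 3′ on the gene's strand, and capitals mark CCAAT and TTTGAA on either strand. Ccnb2 lies on the minus strand at chr9:70421505-70421804, Cdc20 on the minus strand at chr4:118437294-118437593 and Plk1 on the plus strand at chr7:122159185-122159484.
Ccnb2: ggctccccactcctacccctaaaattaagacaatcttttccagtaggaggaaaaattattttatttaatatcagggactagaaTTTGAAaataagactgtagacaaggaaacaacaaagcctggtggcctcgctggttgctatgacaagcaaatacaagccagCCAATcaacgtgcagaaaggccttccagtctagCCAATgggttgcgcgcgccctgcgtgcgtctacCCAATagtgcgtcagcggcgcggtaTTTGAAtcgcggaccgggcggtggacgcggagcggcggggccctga
Cdc20: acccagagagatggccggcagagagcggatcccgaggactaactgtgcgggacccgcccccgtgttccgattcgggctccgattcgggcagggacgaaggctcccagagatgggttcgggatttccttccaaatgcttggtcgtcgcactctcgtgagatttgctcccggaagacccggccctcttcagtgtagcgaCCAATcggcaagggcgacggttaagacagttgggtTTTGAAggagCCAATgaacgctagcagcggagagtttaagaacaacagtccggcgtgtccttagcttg
Plk1: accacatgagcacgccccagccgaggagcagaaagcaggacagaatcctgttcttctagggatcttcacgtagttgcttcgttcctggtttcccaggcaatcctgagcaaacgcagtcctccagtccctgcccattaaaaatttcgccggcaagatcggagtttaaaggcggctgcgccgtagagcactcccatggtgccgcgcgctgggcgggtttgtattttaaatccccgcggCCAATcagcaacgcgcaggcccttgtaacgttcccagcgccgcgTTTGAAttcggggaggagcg
Ccnb2 held 3 CCAAT and 2 TTTGAA matches, Cdc20 2 and 1, and Plk1 1 and 1. Both motifs stood together in 22 of 33 scored G2/M genes called higher that had a promoter in the table (66.7%). They did so in 18 of 31 other mitotic genes called higher (58.1%). Among all 3372 tested genes with a promoter they stood together in 207 (6.14%), and among 31 genes called lower in 2 (6.45%). For a gene with several starts the first entry was read. A match is a run of letters in this window, not a binding site.

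Tubulin genes changed in part. Of 9 tested, 4 rose, namely Tubb5 from 174 ± 153 to 1372 ± 542 CPM, Tuba1c from 11.1 ± 18.9 to 247 ± 82.6 CPM, Tuba1b from 41.8 ± 19.4 to 247 ± 102 CPM and Tuba1a from 65.9 ± 72.5 to 280.5 ± 214 CPM. Near-identical tubulin genes can share reads. Tuba1a lost its call without any of plates 1, 3, 5, 9, 10, 11, 15, 17 or 18 (adjusted p from 0.0535 to 0.0868).

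Of 35 replication genes outside the scored list tested, 5 rose. The histone chaperone gene Asf1b ran from 21.4 to 547 CPM in G1 and from 711 to 1591 CPM in G2M, without overlap, and stood at 1072 ± 333 CPM in S phase. Tcf19 rose from 22.3 ± 49.1 to 151 ± 104 CPM, Dbf4, the activating subunit gene of the Cdc7 kinase, from 7.94 ± 19.9 to 84.5 ± 63.9 CPM, and the thymidine kinase gene Tk1 from 59.9 ± 71.0 to 360.4 ± 187 CPM. Tk1 lost its call without any of plates 3, 5, 10, 13, 17, 18 or 19 (adjusted p from 0.0579 to 0.0762). The scored S list is again a description, with 6 of 26 members tested higher in G2M. Its ribonucleotide reductase gene Rrm2 stood at 16.9 ± 34.0 and 721 ± 244 CPM in G1 and G2M and at 1531 ± 448 CPM in S phase. Rrm1, the other reductase subunit gene, stood at 69.2 ± 53.7 and 422 ± 137 CPM in G1 and G2M and the flap nuclease gene Fen1 at 153 ± 95.5 and 465.9 ± 168 CPM. Fen1 was not past the threshold without plate 18 (adjusted p = 0.0524).

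Of 11 histone genes tested 5 rose. H2afz, a histone variant gene, ran from 1041 through 2178 to 3572 CPM in G1 and from 4211 through 5237 to 7399 CPM in G2M, with no overlap (1.38 ± 0.13 log2, adjusted p = 1.27e-07). H2afv rose from 864 ± 327 to 2237 ± 434 CPM, also with no overlap. The replication-dependent genes Hist1h2ae and Hist1h1b rose from 10.9 ± 16.1 to 233 ± 205 CPM and from 19.5 ± 48.2 to 117 ± 113 CPM. Members of the histone clusters can share reads.

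Other parts of the cycle machinery gave no call. Among 11 genes of the anaphase promoting complex tested, 0 were called (median 0.95 log2). Its activator gene Fzr1 stood at 38.7 ± 63.0 and 170.3 ± 136 CPM (adjusted p = 0.0669) and its subunit gene Anapc11 at 194 ± 93.1 and 370.5 ± 135 CPM (adjusted p = 0.11). Fzr1 passed the test without plate 13 or 19 (adjusted p from 0.0213 to 0.0497), and Anapc11 without plate 4 (adjusted p = 0.0441). Among 8 cohesin genes 0 were called, with the core subunit gene Smc1a at 184 ± 111 and 371 ± 171 CPM (adjusted p = 0.215). Among 10 regulators of G1 and S entry 0 were called (median 0.01 log2). Cdkn2d, a gene of an inhibitor of the G1 kinases, stood at 111 ± 69.7 and 362 ± 149 CPM (adjusted p = 0.0542), and passed without any of plates 4, 19 or 20 (adjusted p from 0.0274 to 0.0479). Ccnd3, a D cyclin gene of germinal centre B cells, stood at 309.7 ± 123 and 278 ± 158 CPM (adjusted p = 0.942).

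Of 8 dark zone genes tested that are outside the scored lists, 0 were higher and 0 lower by edgeR (median -0.17 log2). At an unadjusted p under 0.05 there was 1, Foxp1, which DESeq2 called lower after adjustment with 0 called higher. Hmmr, a dark zone gene whose product also binds spindle microtubules, is on the scored G2/M list, so its levels describe the phase call. It ran from 0 to 59.0 CPM in G1 and from 305 to 720.1 CPM in G2M. The transcription factor gene Foxp1 stood at 361 ± 177 and 179 ± 90.6 CPM (adjusted p = 0.201, lower on 13 plates) and Foxo1, another, at 80.5 ± 94.7 and 56.5 ± 69.5 CPM (adjusted p = 0.966).

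Of 19 germinal centre identity genes tested 0 were called (median 0.08 log2). Irf8, a transcription factor gene, stood at 543 ± 200.1 and 337 ± 119 CPM (adjusted p = 0.327), Gcsam, a signalling adaptor gene, at 1003 ± 308 and 1119 ± 372 CPM (adjusted p = 0.881) and Lipc at 176 ± 119 and 53.5 ± 43.6 CPM (adjusted p = 0.404). The B lineage factor gene Pax5 stood at 88.0 ± 73.8 and 105 ± 82.4 CPM (adjusted p = 0.955), Bach2, a repressor of plasma cell fate, at 172 ± 129 and 103 ± 82.6 CPM (adjusted p = 0.932), the methyltransferase gene Ezh2 at 32.6 ± 57.8 and 59.2 ± 78.7 CPM (adjusted p = 0.955) and the confinement receptor gene S1pr2 at 278 ± 216 and 182 ± 103 CPM (adjusted p = 0.938). Bcl6, Cxcr4, Myc, Ccnd2 and Irf4 did not pass the filter on low counts. Bcl6, the central repressor of the germinal centre state, had 35.7 ± 53.9 CPM in G1 and 21.1 ± 27.7 in G2M. Cxcr4, the receptor that draws cells to the dark zone, had 9.98 ± 12.9 and 4.82 ± 9.52 CPM. A difference in these was not detectable at this depth.

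Of 17 light zone and activation genes tested, 13 had a negative fold change, 4 a positive one and 0 were called (median -0.65 log2 against 0.11 over all genes). The 4 genes fixed as light zone markers were split. Cd83 and Cd86 were lower in G2M. Over summed pools and without a test, Cd40 stood at 57.7 CPM in G1 and 101 in G2M, and Nfkbia at 324 and 356 CPM. Cd83, a light zone activation marker, ran from 211 through 1307 to 2479 CPM in G1 and from 0 through 585 to 1349 CPM in G2M, lower on 13 plates (-1.35 ± 0.45 log2, adjusted p = 0.112). It passed the test without plate 4 (adjusted p = 0.0313). Cd86, which encodes a costimulatory ligand for T cells, ran from 0 through 354 to 745 CPM in G1 and from 0 through 216 to 272 CPM in G2M, lower on 12 plates (-0.89 ± 0.33 log2, adjusted p = 0.177). Fcer2a, the gene of the IgE receptor CD23, stood at 589 ± 344 and 325 ± 167 CPM (adjusted p = 0.13) and passed without plate 4 (adjusted p = 0.0314).

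Genes of antigen presentation took a smaller share of the counts in G2M. Of 13 genes of MHC class II presentation tested 6 were lower and 0 higher (median -0.54 log2). Over all genes tested 1.11% were lower, but the share rose with the level. Outside the scored and other cycle lists, 18 of 26 genes at 3000 CPM or more in G1 were lower, and 23 of 120 at 1000 to 3000 CPM. The 26 include Cd74 and H2-Ab1. Cd74, the invariant chain gene, ran from 9640.1 through 13219 to 20164 CPM in G1 and from 6783 through 7634 to 13813 CPM in G2M. It was lower on every plate, although the groups overlapped (-0.64 ± 0.06 log2, adjusted p = 7.3e-08). The class II chain gene H2-Ab1 ran from 7252 through 10852 to 13874 CPM in G1 and from 5261 through 6805 to 9177 CPM in G2M, also lower on every plate (-0.55 ± 0.05 log2, adjusted p = 3.57e-08). The class II chain genes H2-Aa and H2-Eb1 fell by 0.54 ± 0.06 and 0.45 ± 0.10 log2, and the peptide editor genes H2-DMa and H2-DMb2 by 0.61 ± 0.14 and 0.44 ± 0.09 log2. On the spike-in scale each of these 6 genes had a positive sign, from 0.10 to 0.30 log2, and none was called. The median count per cell of Cd74 was 578 in G1 and 667 in G2M.

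Of 24 genes of the B cell receptor and of B identity tested, 3 were lower and 1 higher. Cd79b, a signalling chain of the receptor, ran from 2830.0 through 4243 to 5352 CPM in G1 and from 1425 through 2352 to 3474 CPM in G2M, lower on every plate (-0.81 ± 0.11 log2, adjusted p = 1.08e-05). Its partner Cd79a fell by 0.48 ± 0.13 log2 (adjusted p = 0.0228), a call lost without plate 1 (adjusted p = 0.0606), and the adaptor gene Blnk by 0.63 ± 0.16 log2. Cd79b and Cd79a lie at 3000 CPM or more in G1, where 18 of 26 genes outside the cycle lists were lower. On the spike-in scale Cd79b stood at -0.08, Cd79a at 0.26 and Blnk at 0.10 log2, none called. Vpreb3, which encodes a chain that associates with immunoglobulin, rose from 454 ± 253 to 1076 ± 334 CPM, on 13 plates (1.41 ± 0.22 log2, adjusted p = 8.89e-05). In the dark zone gate alone Vpreb3 was not past the threshold (adjusted p = 0.479).

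Among genes of at least 20 CPM with the same sign on at least 8 in 10 plates, those with the most negative changes in share held the following others. Cyp4f18, a cytochrome gene, fell from 614 ± 358 to 200.3 ± 144 CPM, a call lost without any of plates 3, 11, 13, 17, 18, 19 or 20 (adjusted p from 0.0557 to 0.0751). Ltb, the lymphotoxin beta gene, fell from 542 ± 237 to 238 ± 158 CPM, and the apolipoprotein gene Apoe from 2021 ± 735 to 815 ± 451 CPM. Sypl, the adenosine deaminase gene Ada and the GTPase gene Gimap6 fell by 1.01 ± 0.24, 0.87 ± 0.22 and 0.84 ± 0.24 log2. Gimap6 lost its call without any of plates 1, 10, 11, 15 or 19 (adjusted p from 0.057 to 0.0673). Crip1, Lsp1, Sepw1 and the proton channel gene Hvcn1 fell by 0.81 ± 0.17, 0.81 ± 0.18, 0.76 ± 0.13 and 0.74 ± 0.19 log2, and the BAFF receptor gene Tnfrsf13c by 0.63 ± 0.15 log2. In the dark zone gate alone, with 95 G1 and 53 G2M cells, Cyp4f18, Ltb, Apoe, Sypl, Ada, Gimap6, Lsp1, Sepw1, Hvcn1, Blnk, Tnfrsf13c and H2-DMa were not past the threshold. With cells thinned to 20000 counts Ada, Gimap6, Hvcn1, Blnk and Tnfrsf13c were not.

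Most genes called lower were abundant ones. Their median level in G1 was 2762 CPM against 95.6 CPM over all genes tested. Among the 150 genes tested at 1000 CPM or more, 41 were lower (27.3%) and 7 higher (4.67%). The molecular tag of 5 bases sets a ceiling of 1024 counts for a gene in a cell, which no dark zone cell in G1 or G2M reached. After a correction for molecules that share a tag, 44 genes were lower, all of them among the 48. Scaling by spike-in counts moved the median of all genes from 0.11 to 0.84 log2. On that scale 602 genes were higher and 2 lower. Of the 48 genes lower in share, 13 kept a negative sign there and 35 had a positive one, 14 of these called higher. The 2 called lower on both scales were Cd84, a SLAM family receptor gene, from 71.9 ± 68.9 to 19.2 ± 47.7 CPM, and Ncf1, an NADPH oxidase subunit gene, from 64.1 ± 65.0 to 10.9 ± 28.3 CPM. Each was lower on 11 of the 14 plates, short of the naming rule, and both are named after their values were seen. In the 14 fits that left out 1 plate, each of these genes passed the filter on low counts only 3 times, keeping its call there.

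**Figure D3:**
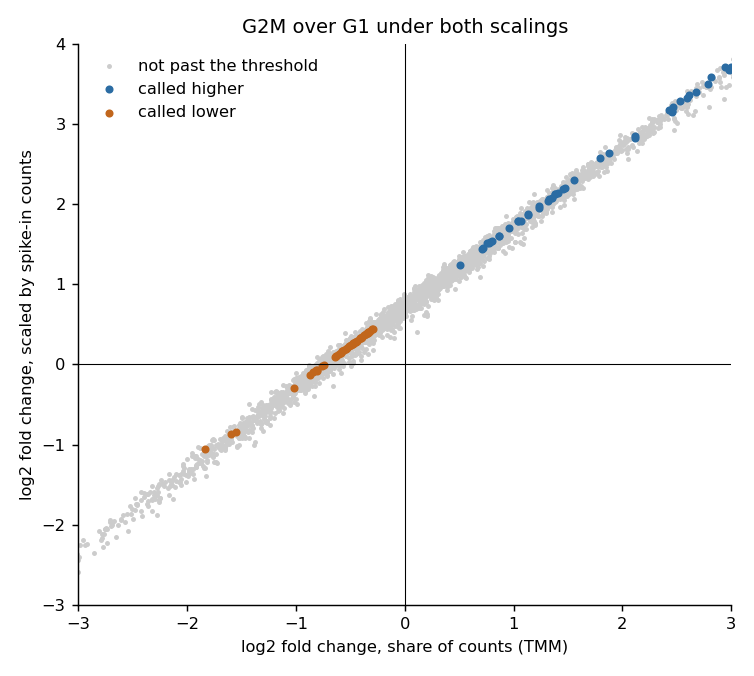
Fitted log2 fold change (G2M over G1) of each gene on shares of counts (x axis) and scaled by spike-in counts (y axis); 230 genes outside the axes are not drawn. The points lie along a line above the origin, and of the 48 genes called lower on shares 35 lie above 0 on the spike-in scale.

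Secretory and metabolic genes gave few calls. Mzb1, an ER protein gene of antibody-secreting cells, fell from 2562 ± 488 to 1842 ± 559 CPM, as 1 of 8 plasma cell identity genes tested, and stood at 0.20 log2 on the spike-in scale. Among 32 ER folding and secretion genes, 40 nuclear oxidative phosphorylation genes, 11 glycolysis genes and 9 immunoglobulin constant region genes 0 were called. Jchain, the joining chain gene of polymeric antibody, stood at 3554 ± 622 and 3232 ± 799 CPM (adjusted p = 0.491) and the pyruvate kinase gene Pkm at 787 ± 359.9 and 1081 ± 241 CPM (adjusted p = 0.172). Iglc2, a lambda constant region gene that can share reads with its neighbours, stood at 649.7 ± 412 and 295 ± 196 CPM (adjusted p = 0.0722) and passed without any of plates 4, 8, 11 or 15 (adjusted p from 0.0209 to 0.0404). Ran, the GTPase gene of nuclear transport and spindle assembly, was the 1 of 25 Myc target and ribosome biogenesis genes called, from 904 ± 326 to 2023 ± 319 CPM with no overlap (adjusted p = 2.38e-06).

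Of 7 genes of the mitochondrial genome tested 2 were lower in share, mt-Co1 by 0.50 ± 0.07 and mt-Cytb by 0.41 ± 0.06 log2, and both stood above 0 on the spike-in scale (0.24 and 0.33 log2). mt-Nd1 differed by -0.30 ± 0.09 log2 (adjusted p = 0.0803) and passed without any of plates 3, 5, 8, 9, 13 or 18 (adjusted p from 0.0178 to 0.0493). The mitochondrial share of a cell's counts was 1.77% ± 0.379 in G1 and 1.44% ± 0.466 in G2M, lower on 11 plates (exact permutation test, adjusted p = 0.00458).

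Of the surface stains, CD86 alone was higher in G2M on every plate. The stains were deposited with different divisors, so the sizes of their differences cannot be ranked. In the deposited unit (the inverse hyperbolic sine of the signal over 10 for CD86, CXCR4 and the viability dye and over 100 for the others), plate means of CD86 ran from 1.52 through 1.81 to 2.38 in G1 cells and from 1.81 through 2.56 to 3.04 in G2M cells. The ranges overlapped, but G2M was higher on 14 of 14 plates, by 0.647 ± 0.417 (SD, exact permutation test, adjusted p = 0.000814 over 20 measures). The unadjusted p of 0.000122 is the smallest that these plates can give. Cd86 transcripts had the opposite sign as a share of counts, without passing the test. Within the dark zone gate the CD86 difference was 0.365 ± 0.661 (13 plates, exact permutation test, adjusted p = 0.151) and within the light zone gate 0.102 ± 0.313 (10 plates, exact permutation test, adjusted p = 0.421). A plate needed 3 cells of each phase for the dark zone gate and fewer for the light zone gate, against 5 in the main test. The gate shares were left out of the adjustment there. Over cells of all gates, with plates of at least 3 cells of each phase, the CD86 difference was 0.383 ± 0.628 (18 plates, permutation test with randomly drawn sign flips, adjusted p = 0.038). The plates that this added to the 14 lowered the mean and had a negative difference on average.

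**Figure D4:**
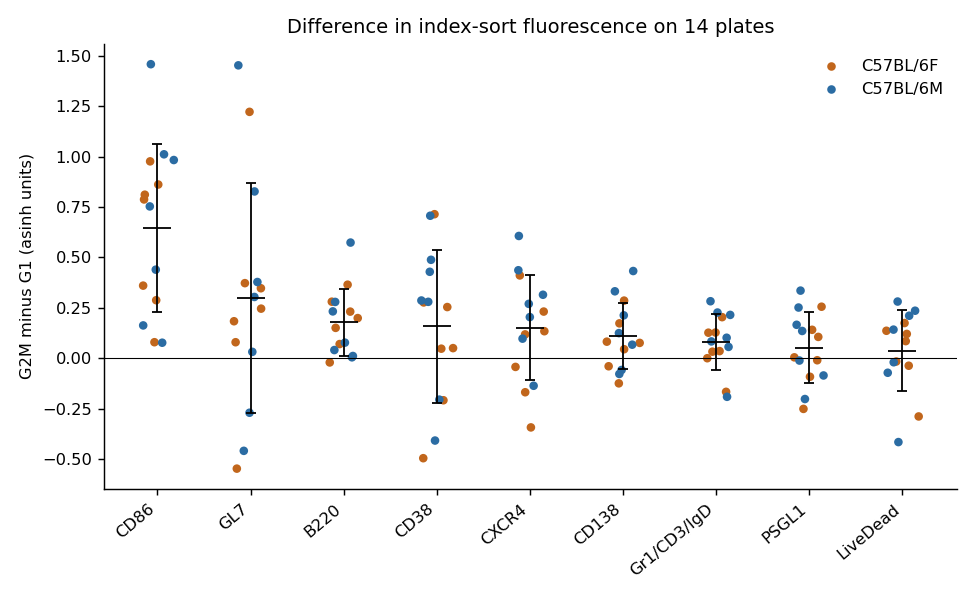
Difference in mean index-sort fluorescence between G2M and G1 dark zone cells for 9 stains (inverse hyperbolic sine units); points are the 14 plates, coloured by sampleID, and bars the mean and SD. All 14 points of CD86 lie above 0. The divisor differs between stains, so sizes cannot be ranked across them.

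B220, a B lineage surface protein, was brighter too. It stood at 1.55 ± 0.0961 in G1 and 1.73 ± 0.151 in G2M, higher on 13 plates (exact permutation test, adjusted p = 0.00174). CD138, the syndecan of plasma cells, stood at 0.256 ± 0.11 in G1 and 0.366 ± 0.158 in G2M (exact permutation test, adjusted p = 0.0402), a call lost without any of plates 3, 4, 5, 8, 13, 15, 17, 19 or 20. CXCR4 stood at 2.68 ± 0.129 in G1 and 2.83 ± 0.24 in G2M (exact permutation test, adjusted p = 0.0661) and passed without plate 5, 9 or 13. GL7, a germinal centre glycan epitope, stood at 2.05 ± 0.311 in G1 and 2.35 ± 0.424 in G2M (exact permutation test, adjusted p = 0.0916) and passed without plate 9 or 20. The combined Gr1, CD3 and IgD channel stood at 0.166 ± 0.0755 in G1 and 0.247 ± 0.135 in G2M (exact permutation test, adjusted p = 0.0661) and passed without plate 9 or 20. CD38 (exact permutation test, adjusted p = 0.174), PSGL1 (exact permutation test, adjusted p = 0.288) and the viability dye (exact permutation test, adjusted p = 0.483) did not pass. Cell size was not analysed here, and its part in these differences was not tested.

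The gate in which a dark zone cell had been sorted moved with its phase. Sort gates are set on surface stains, so the gate shares and the fluorescence differences above are not independent readouts. How far the gates limit the differences within them was not tested. Cells of the dark zone gate made up 67.9% ± 12.3 in G1 and 46.0% ± 13.8 in G2M of a plate's cells of that phase, lower on 14 plates (exact permutation test, adjusted p = 0.000814), and cells of the light zone gate 23.9% ± 8.54 in G1 and 38.9% ± 15.97 in G2M, higher on 11 plates (exact permutation test, adjusted p = 0.00954). Over all plates 135 G1 and 63 G2M cells came from the dark zone gate, 57 and 48 from the light zone gate and 29 and 21 from the PrePC gate. The number of mutated heavy chain bases per cell was 4.31 ± 1.04 in G1 and 3.75 ± 1.13 in G2M over 10 plates (exact permutation test, adjusted p = 0.174), with a difference of -0.561 ± 1.14.

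Another phase column of the deposited table split the cells called G1. It gave 156 of them as G1, 27 as S and 38 as G2M, and all 132 G2M cells as G2M. In these 38 cells, summed over plates, Ccnb2 stood at 807, Ccnb1 at 264, Cdc20 at 221 and Mki67 at 343 CPM. In the 156 cells the same genes stood at 196, 1.49, 13.04 and 71.7 CPM. Mxd3 and Aurka stood at 0 and 0.642 CPM in the former, at 0.543 and 0.951 in the latter and at 249 and 405 CPM in G2M cells. These sums have no replicate error. The median G2M score was 0.059 in the 38 cells and -0.188 in the 156, and the median total counts were 23896.5 and 43913. Ccnb2, Cdc20, Mki67 and Aurka are on the scored G2/M list, so their levels describe the split and support nothing. With only the 156 cells as G1, on 13 plates, 145 genes were higher and 32 lower among 3723 tested. The CD86 difference was then 0.692 ± 0.486 (exact permutation test, adjusted p = 0.00407).

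**Figure D5:**
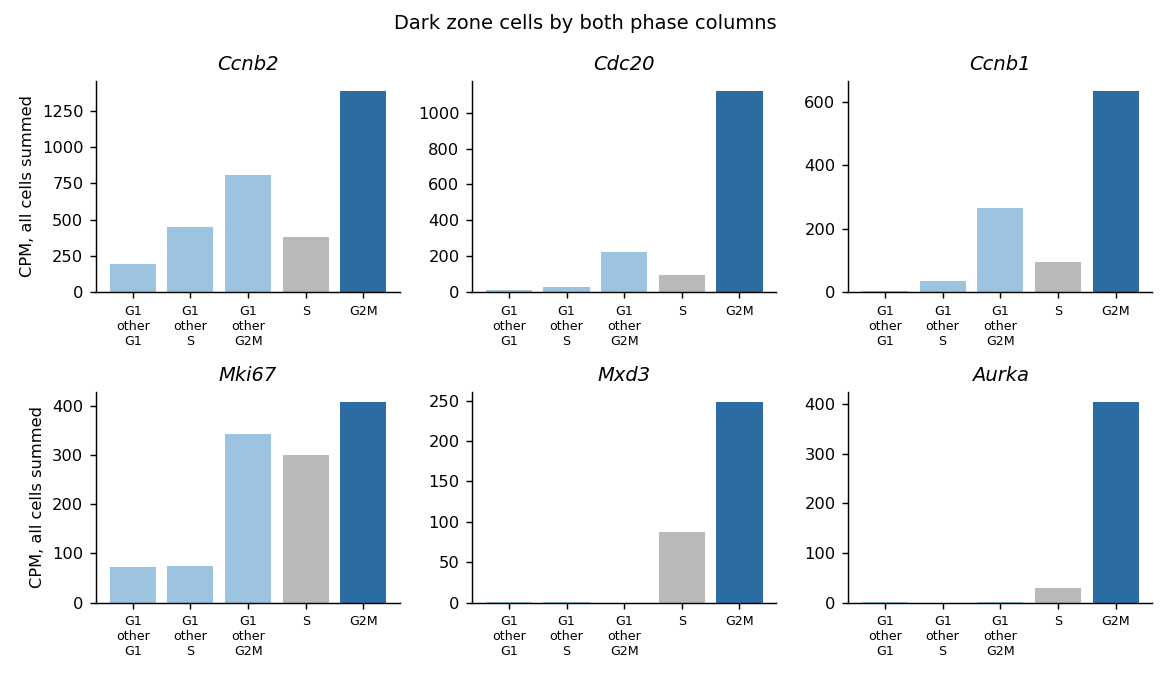
Levels of 6 genes summed over all dark zone cells of a class (CPM): the cells called G1 split by the other phase column, the S cells and the G2M cells. The G1 cells that the other column gives as G2M hold Ccnb2, Cdc20, Ccnb1 and Mki67 between the levels of the remaining G1 cells and of G2M cells, and hold Mxd3 and Aurka at under 1 CPM. Ccnb2, Cdc20, Mki67 and Aurka are on the scored G2/M list, so their levels describe the split.

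Annotated light zone cells served to ask whether the phase difference depends on the zone. On 7 plates with enough cells of each zone and phase, 0 of 5055 genes (0%) had such a dependence at an adjusted p under 0.05 in edgeR, with 225 at an unadjusted p under 0.05. Ccnb2 stood at 428 CPM in dark zone and 37.6 CPM in light zone G1 pools, and at 1483 and 853 CPM in G2M pools (interaction adjusted p = 0.695). Cdc20 stood at 8.73 and 11.6 CPM in G1 and at 1410.5 and 665 CPM in G2M of the dark and the light zone. Cd74 differed between the phases by -0.70 ± 0.04 log2 in the dark and -1.02 ± 0.06 in the light zone (interaction adjusted p = 1). The absence of a call does not show that the zones are alike. Between C57BL/6M and C57BL/6F the phase difference differed for 0 of 4335 genes (0%; 71 at an unadjusted p under 0.05 in edgeR) and for none of the 20 cell measures (lowest permutation p 0.0822, adjusted p 0.946).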

How the data were processed

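Whole-number counts per gene and cell, as deposited, were made with STAR 2.5.3a, HTSeq 0.9.1 and mm10, per the submitters' processing notes. The cell filter is not given in the sources used here. The deposited table of cells gave the spike-in share (a fraction, though named percent), cell cycle scores (unit score, as deposited), heavy chain mutations and fluorescence. Plates were tied to a sampleID through a column of that table.

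Counts were summed per plate and phase, scaled by TMM, filtered by filterByExpr and tested with edgeR 4.0.16 (R 4.3.3; estimateDisp, glmQLFit, glmQLFTest; Benjamini-Hochberg threshold 0.05), with the plate as block because both phases share plates. Values are means ± SD over plates, and fold changes carry the SE. Cell measures were averaged per plate and phase and tested by exact two-sided sign-flip permutation, adjusted over 20 measures. On simulated pools of this comparison (4335 genes) 7.32% of tested genes changed 2-fold and 32.4% of those changed 4-fold were called, so small changes were mostly undetectable. Spike-in counts were recovered from the deposited fraction. No doublet caller was run on the sorted wells. Named genes were Ccnb2 and Cdc20, the 15 largest changes each way outside the scored lists (same sign on 8 in 10 plates, 20 CPM or more), up to 4 genes per list by p, fixed regulators and the 8 scored G2/M genes highest in G2M, with lists shortened in the text. A few genes and a stain are not reported here. The members, lists and rules were chosen with earlier results of these data known.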

Additional observations from a re-analysis of the deposited data

How the results depend on the processing

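The number of genes higher in G2M (156) was 363 with DESeq2, 602 scaled by spike-in counts, 95 and 93 with cells thinned to 20000 and 10000 counts, 55 in the dark zone gate, and 74 and 77 in C57BL/6F and C57BL/6M alone. The number lower (48) was 179 with DESeq2, 2 scaled by spike-in counts, 25 in the dark zone gate, 22 with no replicate block, and 10 and 31 in C57BL/6F and C57BL/6M alone. Leaving out 1 plate gave 121 to 159 higher and 44 to 64 lower. Genes higher made up 76.5% of all calls, and 88.1% in C57BL/6F alone and 99.7% on the spike-in scale. The shared-tag correction, spike-in scale, stricter G1 and light zone gate were chosen after seeing the data.

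On the spike-in scale, which shifts all genes, the sign turned for Cd74 (0.10), Blnk (0.10), Tnfrsf13c (0.11), H2-DMa (0.13), Irf8 (0.10), Cd79a (0.26), H2-Ab1 (0.18), H2-Aa (0.20), H2-DMb2 (0.30), H2-Eb1 (0.29), Jchain (0.59), Mzb1 (0.20), mt-Co1 (0.24), mt-Cytb (0.33), mt-Nd1 (0.44), S1pr2 (0.30), Bach2 (0.13) and Ccnd3 (0.51) (log2 values in brackets). It turned with equal cell numbers for Bach2 (0.037) and Ccnd3 (0.12), in the dark zone gate for Pax5 (-0.14), with at least 3 cells for Pax5 (-0.30) and in C57BL/6M alone for Pax5 (-0.14) and Ezh2 (-1.39).

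Cell measures lost their call in C57BL/6F alone for B220 (0.182), CD138 (0.071), CD86 (0.595), log2 total counts (0.868), genes detected (591), genes at 20000 counts (429), genes at 10000 counts (363), the spike-in share in percent (-1.39), log2 counts per spike-in count (0.654), the mitochondrial share in percent (-0.372), the dark zone gate in percent (-22.8) and the light zone gate in percent (17.7). In C57BL/6M alone they did so for B220 (0.174), CD138 (0.148), CD86 (0.698), log2 total counts (0.747), genes detected (471), genes at 20000 counts (376), genes at 10000 counts (283), the spike-in share in percent (-4.6), log2 counts per spike-in count (0.899), the mitochondrial share in percent (-0.294), the dark zone gate in percent (-21.0) and the light zone gate in percent (12.4). With 7 plates the smallest p is 0.0156, which 5 measures reached in each sampleID. Their adjusted p (exact permutation test), the lowest there, was 0.0594 in C57BL/6F and 0.0625 in C57BL/6M. For these 5 the p could not be lower with 7 plates, so their lost calls say nothing about stability. The other measures did not reach that p, and the cause of their lost calls was not tested. In the dark zone gate CD138 (0.109), CD86 (0.365), log2 total counts (0.665), the spike-in share in percent (-0.305) and log2 counts per spike-in count (0.514) lost it and PSGL1 (-0.00242) and CD38 (-0.0763) turned sign. In the light zone gate B220 (0.206), CD86 (0.102), log2 total counts (0.986), genes detected (637), genes at 10000 counts (362) and the mitochondrial share in percent (-0.257) lost it and PSGL1 (-0.000723), the viability dye (-0.107) and CD138 (-0.0145) turned sign. With no replicate block CD138 (0.109), genes at 10000 counts (323), the spike-in share in percent (-2.99) and the mitochondrial share in percent (-0.333) lost it, with at least 3 cells the light zone gate in percent (9.85), and with the stricter G1 the spike-in share in percent (-1.19), where the viability dye (0.0974) gained one. Leaving out 1 plate changed the call of CD138 (0.0844 to 0.127), GL7 (0.209 to 0.363), CXCR4 (0.117 to 0.19) and the Gr1, CD3 and IgD channel (0.0654 to 0.102). The cause of the other changes was not tested. Pools of few cells limit what can be seen of low transcripts, and the gate settings required fewer cells of a plate than the main test.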

Other observations

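A few genes on none of the lists that rose in G2M are named here after their values were seen, and stand for no group. Ptma, the prothymosin alpha gene, went from 2092 to 4050.4 CPM (0.96 ± 0.10 log2). The high-mobility group genes Hmgb1 and Hmgn2 went from 992 to 2365 CPM (1.32 ± 0.14 log2) and from 3706 to 6026 CPM (0.71 ± 0.08 log2). Each of these 3 genes was higher on 14 plates. Arl6ip1 went from 496 to 1449 CPM (1.55 ± 0.19 log2) and the heat shock gene Hspa2 from 24.3 to 313 CPM (4.50 ± 0.85 log2), past an adjusted p of 0.05 by edgeR.

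Cytosolic ribosomal protein genes, grouped after their values were seen, had a negative fold change in 70 of 82 cases as shares of counts, with 9 lower, 0 higher and a median of -0.21 log2. Scaled by spike-in counts that median turned to 0.53 log2. Their pseudogenes can share reads. Polh, a polymerase gene of the hypermutation pathway that did not pass the filter on low counts, had 0 counts in 12 G1 and 3 G2M pools, with 15.3 ± 55.9 and 78.7 ± 80.0 CPM.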
